A study of Mus musculus with 4 samples.

Results

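Fibroblast growth factors (FGFs) and their receptors were examined in cultured mouse adipose cells through 7 genes of the family, 4 ligands (Fgf2, Fgf7, Fgf10 and Fgf18) and 3 receptors (Fgfr1, Fgfr2 and Fgfr3), taken by symbol from the 32285 genes counted. The cells were profiled by droplet-based single-cell RNA sequencing in 4 libraries, 1 per condition. White fat came from C57BL/6J male mice on chow diet, either from the inguinal depot (iWAT), which lies under the skin, or from the epididymal depot (eWAT), a visceral depot. From each depot, mature adipocytes were turned into de-differentiated fat (DFAT) cells in ceiling culture, in which floating fat-laden cells attach to an upper surface and become spindle-shaped, and the stromal vascular fraction (SVF), the non-adipocyte cells of the tissue, was expanded as a primary culture of adipose stem and progenitor cells (ASPCs). The groups were iWAT_DFAT, eWAT_DFAT, iWAT_SVF and eWAT_SVF, all of them cells kept in growth medium, trypsinized and sorted for live cells with the dye 7-AAD. No group had a second library, so the spread between cultures is unknown and no difference was tested. How many animals a culture came from is not given in the labels.

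A unique molecular identifier (UMI) marks a single captured transcript, and levels are given as counts per 1e6 UMIs (CPM) summed over the cells of a library. The limits on cells left 7629 cells of iWAT_DFAT, 6464 of eWAT_DFAT, 7424 of iWAT_SVF and 6745 of eWAT_SVF, with 183664704 to 199357348 UMIs per library and a median of 22111 to 27617 UMIs per cell. At most 20 cell barcodes were shared by any pair of libraries. The progenitor marker Pdgfra was read in every library, at 246 CPM in iWAT_DFAT and 82.5 to 95.2 CPM in the others, and the adipocyte hormone Lep had no UMI in any. Adipoq, the adipocyte gene encoding adiponectin, was at 1.23 CPM in iWAT_DFAT, 11.3 in eWAT_DFAT, 0.100 in iWAT_SVF and 0.157 in eWAT_SVF. The summed level of 8 smooth muscle markers was at 704 CPM in iWAT_DFAT, 6770 in eWAT_DFAT, 13784 in iWAT_SVF and 17848 in eWAT_SVF. Intervals below are 95% intervals for counting error only.

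FGFs are secreted signals that bind heparan sulfate on the cell surface together with a receptor tyrosine kinase of the FGFR family. The activated receptor engages the adaptor FRS2 and the RAS-MAPK cascade, which turns on ETS-family and AP-1 transcription factors as well as its own inhibitors of the Sprouty and dual-specificity phosphatase (DUSP) families. FGF7 and FGF10 belong to the same subfamily and signal through an epithelial splice form of FGFR2, FGF2 lacks a conventional signal peptide and binds several receptors, and FGF10 is known for its part in the growth of fat from its progenitors. Because these counts come from the ends of transcripts, they do not separate the splice forms of a receptor.

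In both depots the ligands Fgf7 and Fgf10 were higher in DFAT cells than in SVF cells. The receptors Fgfr1 and Fgfr2 differed less, Fgfr1 in opposite directions in the depots. Fgf10 was 5.61-fold higher in iWAT_DFAT than in iWAT_SVF and 5.52-fold higher in eWAT_DFAT than in eWAT_SVF. Fgf7 was 2.48-fold and 4.10-fold higher in the same order. Fgfr1 was 2.62-fold higher in iWAT_DFAT than in eWAT_DFAT, the only member above the 2-fold limit in that direction between the DFAT libraries. A gene was counted as apart when its levels differed at least 2-fold with at least 5 CPM in the higher library, and 6 of the 7 members reached that level in a library, Fgfr3 being the exception.

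**Figure D1:**
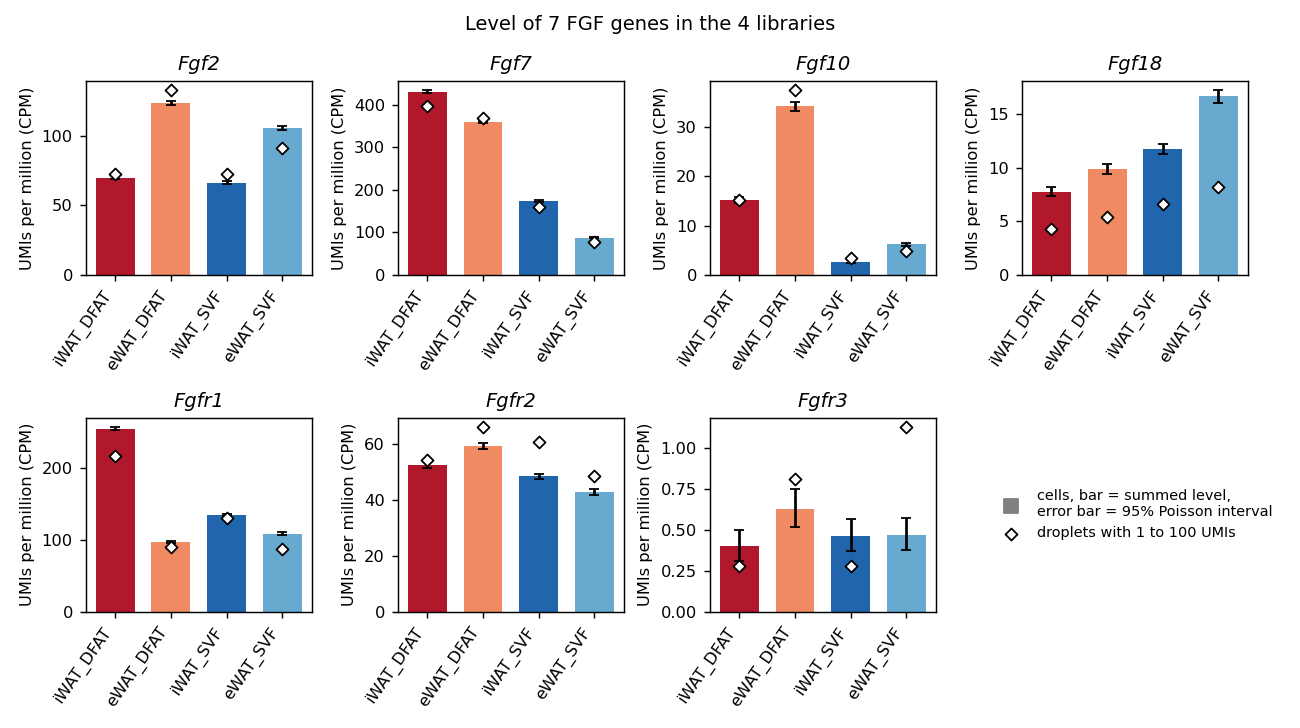
Summed level of each of the 7 genes in CPM (vertical axis, linear from 0) in the 4 libraries (bars) with the 95% Poisson interval (error bars) and the level in droplets of 1 to 100 UMIs (open diamonds). Fgf7 and Fgf10 are higher in both DFAT libraries than in both SVF libraries, Fgf18 is lower in both, and Fgfr1 is highest in iWAT_DFAT, at 256 CPM.

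Fgf7 (ENSMUSG00000027208) encodes keratinocyte growth factor, a paracrine signal from stromal cells to epithelium, and lies on the forward strand of chromosome 2 at 126034658-126091185 (GRCm38, the build also called mm10). Its level was 431 CPM (428 to 434) in iWAT_DFAT, 359 (356 to 362) in eWAT_DFAT, 174 (172 to 176) in iWAT_SVF and 87.5 (86.2 to 88.8) in eWAT_SVF. Both DFAT libraries stood above both SVF libraries, and within each kind of culture the inguinal library was the higher. Neighbors in this order had separate counting intervals, and the highest level was 4.93 times the lowest. At least 1 Fgf7 UMI was found in 97.5% of iWAT_DFAT cells, 90.5% of eWAT_DFAT cells, 85.6% of iWAT_SVF cells and 66.4% of eWAT_SVF cells. With each cell thinned to 5000 UMIs these shares were 82.2%, 71.2%, 49.6% and 28.8%, in the same order as the levels.

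The log2 ratio of Fgf7 was 1.31 (1.29 to 1.33) in iWAT_DFAT over iWAT_SVF and 2.04 (2.01 to 2.06) in eWAT_DFAT over eWAT_SVF. Between depots it was 0.26 (0.25 to 0.28) in iWAT_DFAT over eWAT_DFAT and 0.99 (0.96 to 1.02) in iWAT_SVF over eWAT_SVF, the last a 1.99-fold difference at the edge of the 2-fold limit. The gene Fam227b overlaps Fgf7 on the opposite strand. Cell Ranger, the program that made the counts, by default assigns only reads on the strand of a gene to it.

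Fgf10 (ENSMUSG00000021732) encodes a ligand of the FGF7 subfamily made by mesenchyme and lies on the forward strand of chromosome 13 at 118669791-118792115. Its level was 15.2 CPM (14.7 to 15.8) in iWAT_DFAT, 34.2 (33.4 to 35.1) in eWAT_DFAT, 2.71 (2.49 to 2.95) in iWAT_SVF and 6.20 (5.85 to 6.55) in eWAT_SVF. The epididymal library was the higher in each kind of culture, the reverse of Fgf7, and again both DFAT libraries stood above both SVF libraries. The span of 12.6 times between eWAT_DFAT and iWAT_SVF was the widest of the 6 members at 5 CPM or more. A UMI of Fgf10 was present in 18.3% (17.4 to 19.2) of iWAT_DFAT cells, 36.6% (35.4 to 37.8) of eWAT_DFAT cells, 4.69% (4.22 to 5.19) of iWAT_SVF cells and 10.7% (9.95 to 11.4) of eWAT_SVF cells. Cells with a detected transcript were thus a minority in all 4 libraries, and the SVF cultures held 541 UMIs in iWAT_SVF and 1224 in eWAT_SVF.

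Between DFAT and SVF cells the log2 ratio of Fgf10 was 2.49 (2.35 to 2.62) for iWAT and 2.47 (2.38 to 2.56) for eWAT. The inguinal libraries were below the epididymal ones, with log2 ratios of -1.17 (-1.23 to -1.10) among DFAT cells and -1.19 (-1.34 to -1.04) among SVF cells, that is 2.25-fold and 2.28-fold. In droplets of 1 to 100 UMIs, which hold RNA that had leaked from cells, Fgf10 was at 15.3 CPM in iWAT_DFAT, 37.5 in eWAT_DFAT, 3.36 in iWAT_SVF and 4.79 in eWAT_SVF. The free RNA thus followed the same order as the cells.

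Fgf7 and Fgf10 were the members above the 2-fold limit between DFAT and SVF cells in both depots, and the stretch before their transcription start is printed for that reason. The 250 bases upstream of the RefSeq start (GRCm38.p6, forward strand, 5′ to 3′) span chr2:126034408-126034657 for Fgf7 and chr13:118714449-118714698 for Fgf10, the latter start lying inside the longer gene model used for counting. Capitals mark the motif found in each.
Fgf7: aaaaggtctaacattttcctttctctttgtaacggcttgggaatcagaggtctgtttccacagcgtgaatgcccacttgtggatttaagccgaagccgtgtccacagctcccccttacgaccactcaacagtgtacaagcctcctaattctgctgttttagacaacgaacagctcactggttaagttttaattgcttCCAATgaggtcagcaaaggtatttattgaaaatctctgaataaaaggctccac
Fgf10: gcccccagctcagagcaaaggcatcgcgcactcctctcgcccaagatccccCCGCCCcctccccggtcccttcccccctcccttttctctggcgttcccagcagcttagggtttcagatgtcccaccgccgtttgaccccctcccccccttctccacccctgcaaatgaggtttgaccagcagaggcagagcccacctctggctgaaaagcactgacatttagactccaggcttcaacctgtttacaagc
The capitals in Fgf7 are a CCAAT box (CCAAT) that begins 53 bases before the start, and those in Fgf10 are a GC box (GGGCGG, here read on the reverse strand as CCGCCC) that begins 199 bases before it. A CCAAT box occurs in 33.8% and a GC box in 32.7% of the 32851 RefSeq promoters of the same length, both strands searched. Also searched for on both strands were AP-1 (TGANTCA, in 6.75% of promoters), CRE (TGACGTCA, 1.55%), NF-kB (1.41%), the TATA box (TATAAA, 12.4%) and TEAD (GGAATG, 12.6%), and none of these was in either window. The 2 windows also differed in base composition, with 43.6% G or C in Fgf7 and 61.2% in Fgf10, against a median of 52.4% over all promoters searched. RefSeq promoters were matched for 6 of the 7 members, all but Fgfr1.

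Fgf2 (ENSMUSG00000037225), basic fibroblast growth factor, is a mitogen for stromal and endothelial cells and lies on the forward strand of chromosome 3 at 37348346-37410108. Its level was 69.8 CPM (68.6 to 71.0) in iWAT_DFAT, 123 (122 to 125) in eWAT_DFAT, 66.3 (65.2 to 67.4) in iWAT_SVF and 105 (104 to 107) in eWAT_SVF. Here both epididymal libraries lay above both inguinal ones. The log2 ratio of the inguinal to the epididymal library was -0.82 (-0.85 to -0.79) among DFAT cells and -0.67 (-0.70 to -0.64) among SVF cells. Against these, DFAT over SVF gave 0.07 (0.04 to 0.11) for iWAT, a sign that turned under other scalings (-0.01 with size factors and -0.12 against genes of like intron length), and 0.23 (0.20 to 0.26) for eWAT. None of these reached 2-fold. Fgf2os and Nudt6 overlap Fgf2 on the opposite strand.

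Fgf18 (ENSMUSG00000057967), a ligand best known from cartilage, bone and lung, lies on the reverse strand of chromosome 11 at 33117430-33147400. Its level was 7.79 CPM (7.39 to 8.20) in iWAT_DFAT, 9.92 (9.47 to 10.4) in eWAT_DFAT, 11.8 (11.3 to 12.2) in iWAT_SVF and 16.7 (16.1 to 17.3) in eWAT_SVF. Fgf18 was thus the 1 ligand of the 4 that was lower in both DFAT libraries than in both SVF libraries. Its log2 ratio was -0.59 (-0.69 to -0.50) in iWAT_DFAT over iWAT_SVF and -0.75 (-0.83 to -0.67) in eWAT_DFAT over eWAT_SVF. Between depots it was -0.35 (-0.45 to -0.25) among DFAT cells and -0.51 (-0.58 to -0.43) among SVF cells. All 4 ratios were under 2-fold, and in free RNA Fgf18 was at 4.28 to 8.17 CPM, below its level in the cells of each library.

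Fgfr1 (ENSMUSG00000031565), the receptor through which FGF2 acts on mesenchymal cells, lies on the forward strand of chromosome 8 at 25513654-25575718. Its level was 256 CPM (253 to 258) in iWAT_DFAT, 97.5 (96.1 to 98.9) in eWAT_DFAT, 134 (133 to 136) in iWAT_SVF and 109 (108 to 111) in eWAT_SVF. The iWAT_DFAT library stood alone, while the other 3 lay within 97.5 to 134 CPM. A UMI of Fgfr1 was present in 95.3%, 79.9%, 87.8% and 85.2% of cells in the same order of libraries, and in 64.8%, 34.2%, 45.2% and 39.5% after thinning. Between the DFAT libraries the log2 ratio was 1.39 (1.37 to 1.42), and between the SVF libraries it was 0.30 (0.28 to 0.33). DFAT over SVF gave 0.93 (0.91 to 0.95) for iWAT, 1.90-fold, and -0.16 (-0.19 to -0.13) for eWAT, so that the direction was opposite in the depots.

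Fgfr2 (ENSMUSG00000030849), the receptor of FGF7 and FGF10 in its epithelial splice form, is annotated on the reverse strand of chromosome 7 at 130162451-133123350. That model spans 2960900 bp and overlaps 22 genes on the same strand. The window before the RefSeq start of Fgfr2 is at 130266809-130267058, so most of the model lies upstream of that start. Intronic reads on the same strand there can be counted as Fgfr2 without coming from the receptor transcript, and some can belong to other genes. Their share was not tested, and every Fgfr2 value given here carries this limit. The level was 52.6 CPM (51.6 to 53.7) in iWAT_DFAT, 59.3 (58.2 to 60.4) in eWAT_DFAT, 48.4 (47.5 to 49.4) in iWAT_SVF and 42.8 (41.9 to 43.7) in eWAT_SVF. Of the 6 members at 5 CPM or more Fgfr2 varied least between libraries, with 1.39 times between the highest and the lowest. DFAT over SVF gave a log2 ratio of 0.12 (0.08 to 0.16) for iWAT and 0.47 (0.43 to 0.51) for eWAT. The iWAT value turned to -0.22 against genes of like intron length. Between depots the ratio was -0.17 (-0.21 to -0.13) among DFAT cells and 0.18 (0.14 to 0.22) among SVF cells.

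Fgfr3 (ENSMUSG00000054252), a receptor known from growing cartilage, lies on the forward strand of chromosome 5 at 33721674-33737068 and was barely detected. Its level was 0.397 CPM in iWAT_DFAT (73 UMIs), 0.625 in eWAT_DFAT (116), 0.461 in iWAT_SVF (92) and 0.466 in eWAT_SVF (92). The intervals of neighbors in the order of these levels overlapped throughout, while those of the other 6 members were separate, and between 0.944% and 1.73% of cells held a UMI. Differences of Fgfr3 between libraries are therefore not read further.

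**Figure D2:**
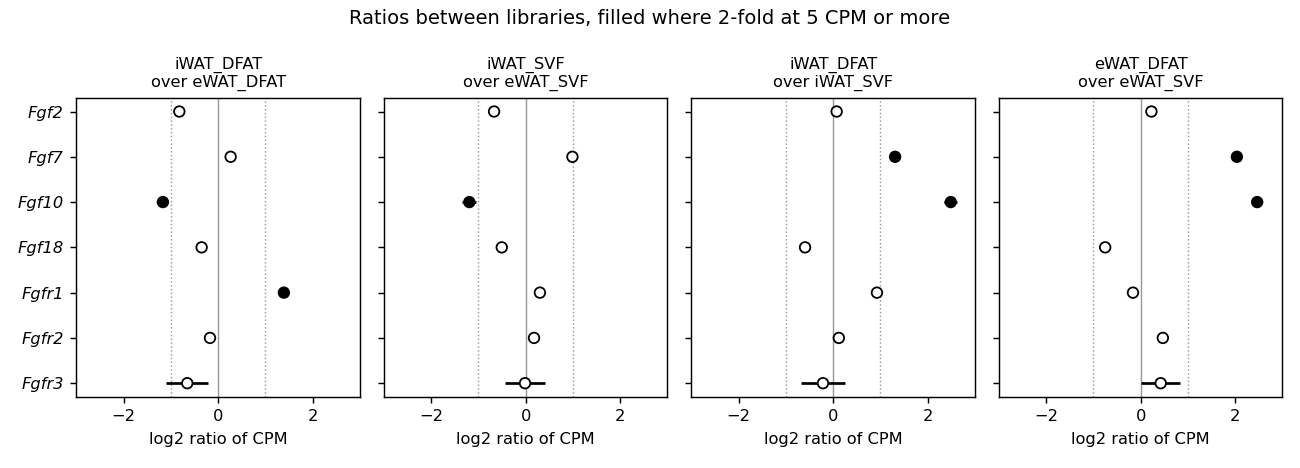
Log2 ratio of CPM (horizontal axis) of each member in the 4 contrasts, with 95% counting intervals that are mostly smaller than the symbol; filled symbols are at least 2-fold apart at 5 CPM or more, and dotted lines mark 2-fold. Fgf10 is filled in all 4 panels, at -1.17, -1.19, 2.49 and 2.47, Fgf7 in both DFAT over SVF panels and Fgfr1 in iWAT_DFAT over eWAT_DFAT.

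Set against all genes at 5 CPM or more, 1 member was at least 2-fold higher in iWAT_DFAT than in eWAT_DFAT (Fgfr1) where 8.29% of 10384 genes were, and 1 was lower (Fgf10) where 3.95% were, 12.2% in either direction. Between iWAT_SVF and eWAT_SVF, 1 of the 6 members was lower in iWAT_SVF (Fgf10) and none was higher, with 3.94% of 10135 genes lower, 2.94% higher and 6.88% in either direction. In iWAT_DFAT over iWAT_SVF 2 members were higher (Fgf10 and Fgf7), where 9.91% of 10426 genes were higher, 5.18% lower and 15.1% in either direction. In eWAT_DFAT over eWAT_SVF the same 2 members were higher, where 6.44% of 10298 genes were higher, 6.67% lower and 13.1% in either direction. The members' median log2 ratios were 0.52 and 0.35 in the DFAT over SVF contrasts of iWAT and eWAT, where the medians of all genes were 0.09 and 0.07, and -0.26 and -0.16 between the depots of DFAT and SVF cells, where those of all genes were 0.09 and 0.05. Each library enters 2 of these contrasts, so they are not independent of each other.

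The cells were next grouped into 22 clusters over all libraries, with every gene of the FGF pathway lists left out of the clustering, so that the members took no part in forming the classes. The cells of 12 clusters with ASPC markers (Pdgfra, Dcn, Col1a1 and others) are called ASPC-like, 97.8% of iWAT_DFAT, 89.6% of eWAT_DFAT, 81.0% of iWAT_SVF and 57.8% of eWAT_SVF. The name required 6 of 11 ASPC markers detected in at least 50% of cells, not a level above other cells. Cluster 0 had 2 of 11 ASPC markers but 5 of 8 smooth muscle markers raised at least 2-fold over all other cells. Clusters 2, 8, 9 and 10 had 0 ASPC markers so raised. ASPC-like cells of different libraries are thus not all of a like kind. Clusters were largely split by library (13 of 22 drew at least 90% of their cells from 1 library), so ASPC-like cells of different libraries sit in different clusters, chiefly 1, 4 and 7 in iWAT_DFAT, 2, 8 and 10 in eWAT_DFAT, 3, 5 and 9 in iWAT_SVF and 0 in eWAT_SVF. Cluster 6, with smooth muscle genes (Des, Actg2 and Myh11) among its leading genes and raised G2 and M phase markers, and clusters 11 and 12 stayed unnamed under limits that were set after the clusters were seen, although 9 of the 11 ASPC markers were each detected in at least 50% of the cells of clusters 6 and 11. Cluster 6 held 29.6% of eWAT_SVF, cluster 11 held 12.7% of iWAT_SVF and cluster 12 held 1.30% to 3.34% of each library.

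Within ASPC-like cells alone the order of the libraries was kept for Fgf7 and Fgf10. Fgf10 was at 14.9 CPM in iWAT_DFAT, 35.1 in eWAT_DFAT, 2.97 in iWAT_SVF and 7.77 in eWAT_SVF, and its log2 ratio of DFAT to SVF was 2.33 for iWAT and 2.17 for eWAT. Fgf7 was at 435, 377, 185 and 102 CPM in that order of libraries, with log2 ratios of 1.23 and 1.88. Fgfr1 remained highest in iWAT_DFAT, at 258 CPM against 101 to 142 in the others. Whether the smooth muscle markers, which differ between the libraries, have a part in these differences was not tested. With coarser clusters (resolution 0.5) fewer cells of iWAT_SVF were ASPC-like, 2713 in place of 6013, of which 2705 lay in a cluster with raised cell cycle markers. In them Fgf10 was at 1.90 CPM, and Fgf18 was at 7.88 CPM in place of 11.4, level with the ASPC-like cells of iWAT_DFAT at 7.88 and below those of eWAT_DFAT at 10.4.

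Adipocyte-like cells, which carried Adipoq, Plin1 and other fat cell markers, were few and almost confined to the DFAT libraries, with 33 in iWAT_DFAT, 105 in eWAT_DFAT, 2 in iWAT_SVF and 1 in eWAT_SVF. Fgf10 was higher in them than in any other class measured in these libraries, at 108 CPM (85.8 to 134) in iWAT_DFAT and 101 (87.3 to 116) in eWAT_DFAT. The log2 ratio to the ASPC-like cells of the same library was 2.85 (2.52 to 3.17) in iWAT_DFAT and 1.52 (1.31 to 1.72) in eWAT_DFAT. At least 1 Fgf10 UMI was found in 52.4% of the adipocyte-like cells of eWAT_DFAT, whose median depth was 16926 UMIs, against 39.6% of its ASPC-like cells and 2.82% of its endothelial-like cells, whose median depths were 28610 and 11392. These cells held 82 of the 2796 Fgf10 UMIs of iWAT_DFAT and 202 of the 6353 of eWAT_DFAT, or 2.93% and 3.18%, so most Fgf10 UMIs lay in other cells. Fgf7 ran the other way, at 145 CPM and 66.3 CPM in adipocyte-like cells of iWAT_DFAT and eWAT_DFAT, with log2 ratios to ASPC-like cells of -1.59 and -2.51. Fgfr1 was also lower there, with log2 ratios of -1.39 (-1.73 to -1.06) and -1.17 (-1.49 to -0.88).

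**Figure D3:**
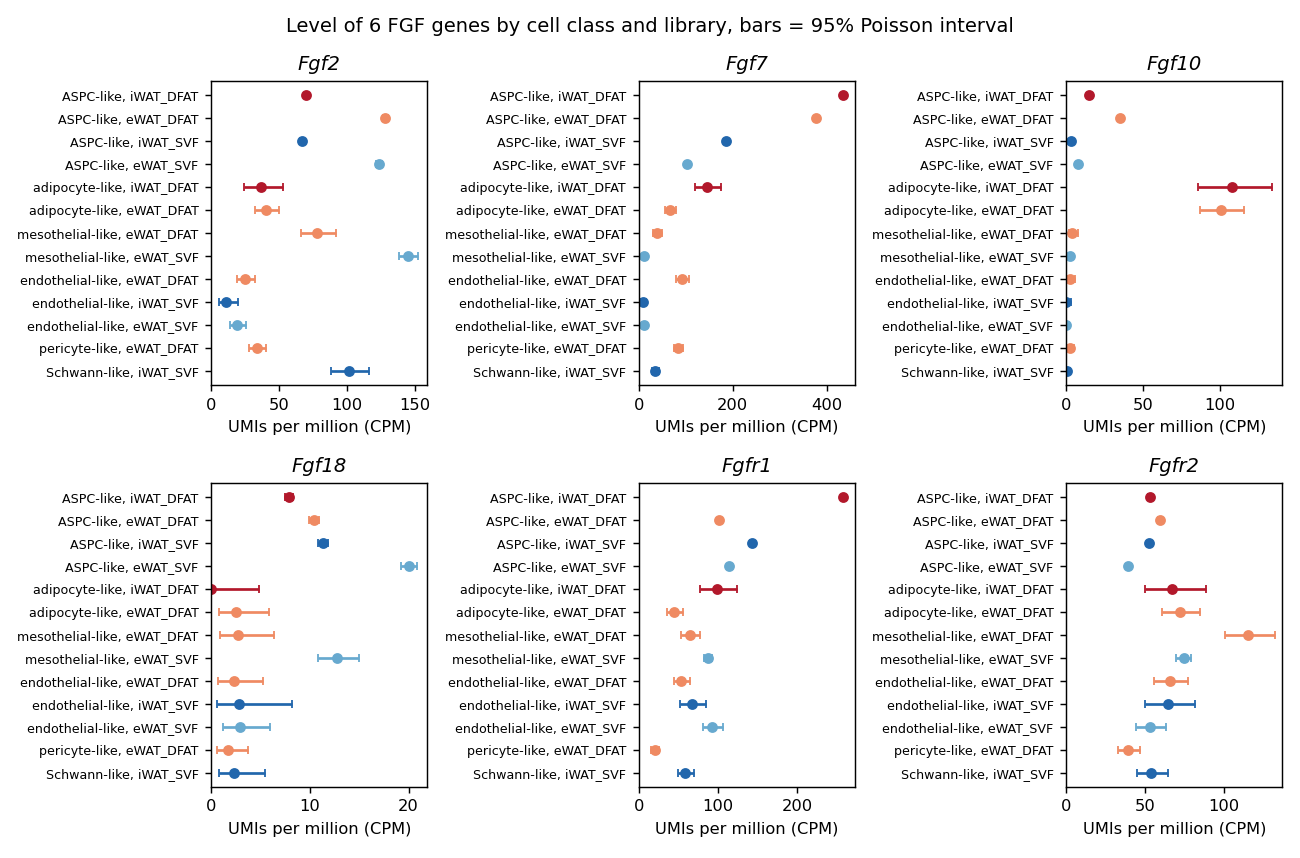
Level in CPM (horizontal axes, linear from 0) of 6 members in each cell class of at least 30 cells, by library, with 95% Poisson intervals. Fgf10 stands out in adipocyte-like cells, at 108 and 101 CPM, Fgf7 and Fgfr1 in the ASPC-like cells of iWAT_DFAT, and Fgfr2 in the mesothelial-like cells of eWAT_DFAT, at 115 CPM.

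Mesothelial-like cells, the lining cells of visceral fat, came from the epididymal libraries, 77 from eWAT_DFAT and 491 from eWAT_SVF. Fgfr2 was higher in them than in ASPC-like cells of the same library, at 115 CPM (100.3 to 132) in eWAT_DFAT, a log2 ratio of 0.96 (0.76 to 1.15), and at 74.2 (69.4 to 79.3) in eWAT_SVF, a log2 ratio of 0.91. Fgf7, a ligand of that receptor, was low in them, at 38.6 CPM in eWAT_DFAT and 11.4 in eWAT_SVF, with log2 ratios of -3.29 and -3.16. Fgf2 was at 78.3 and 145 CPM in the same cells. The mesothelial-like cells thus had low Fgf7 beside ASPC-like cells at 377 and 102 CPM in the same cultures. A UMI of Fgf7 was found in 15.6% of the mesothelial-like cells of eWAT_DFAT and 10.8% of those of eWAT_SVF, so their Fgf7 levels rest on few cells.

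Endothelial-like cells (142 of eWAT_DFAT, 56 of iWAT_SVF and 136 of eWAT_SVF) held Fgfr1 at 53.4, 67 and 92.9 CPM and Fgfr2 at 65.7, 64.2 and 53.1 CPM in that order. Their Fgf2 was at 24.9, 11.2 and 19.1 CPM, below the ASPC-like cells of each library. No Fgf10 UMI was found in 56 endothelial-like cells of iWAT_SVF, which at a floor of 3 counts allows a share of up to 5.36% of cells with a UMI, nor in 136 of eWAT_SVF, which allows up to 2.21%. In the pericyte-like cells of eWAT_DFAT (177 cells) Fgfr1 was at 19.9 CPM, 5.08-fold lower than in ASPC-like cells. In the Schwann-like cells of iWAT_SVF (147 cells) Fgf2 was at 102 CPM, a log2 ratio of 0.60 to ASPC-like cells, and Fgf7 at 35.3 CPM, a log2 ratio of -2.39.

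Stromal clusters with raised cell cycle markers also differed from the others in these genes. Such clusters differ in further genes too, and the part of the cell cycle was not tested. Levels are shares of UMIs, and median depth differed between clusters. It was 27422.5 UMIs per cell in the cycling cluster 4 of iWAT_DFAT against 18577 in cluster 1 and 25122.5 in cluster 7. In eWAT_DFAT it was 26954 in the cycling cluster 8 and 32819.5 in the cycling cluster 10 against 27661 in cluster 2. A lower level therefore need not be a lower count per cell. Summed over cells, the clusters with raised S phase or G2 and M phase markers had lower levels of Fgf10, Fgf2 and Fgf7 in all 4 libraries than the other clusters with ASPC markers together. This did not hold for each cluster, since Fgf10 was at 14.6 CPM in the non-cycling cluster 19 of eWAT_DFAT against 23.9 in the cycling cluster 10, and Fgf7 at 127 CPM in the non-cycling cluster 11 of iWAT_SVF against 165 in the cycling clusters. The log2 ratio of cycling to other clusters was -1.08, -1.11, -0.79 and -0.81 for Fgf10 in iWAT_DFAT, eWAT_DFAT, iWAT_SVF and eWAT_SVF. For Fgf2 it was -0.69, -0.47, -0.55 and -0.82, and for Fgf7 it was -0.27, -0.26, -0.19 and -0.34. Fgf18 was lower in cycling clusters of the SVF libraries, at -0.91 in iWAT_SVF and -0.70 in eWAT_SVF, was at -0.14 (-0.28 to -0.01) in eWAT_DFAT and was at 0.17 (0.01 to 0.32) in iWAT_DFAT, where the cycling cluster 4, at 8.31 CPM, lay between the non-cycling clusters 1, at 4.79, and 7, at 11.1. Fgfr1 was also lower in cycling clusters, at -0.37 and -0.30 in iWAT_DFAT and eWAT_DFAT and at -0.09 and -0.08 in iWAT_SVF and eWAT_SVF, while Fgfr2 lay between -0.05 and 0.15. The Fgfr2 value of iWAT_SVF, 0.08, turned to -0.11 (-0.17 to -0.05) without the unnamed cluster 11. Without that cluster Fgf10 was at -1.01 (-1.29 to -0.73) in iWAT_SVF and Fgf18 at -0.85 (-0.99 to -0.71). Fgf2, Fgf7 and Fgfr1 were then at -0.62, -0.30 and -0.19, so that Fgf10 was the lowest there. In eWAT_SVF 1996 of the 1999 cycling cells are of cluster 6, in which smooth muscle markers also lead, and the parts of the cell cycle and of that cell kind in these ratios cannot be told apart there.

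**Figure D4:**
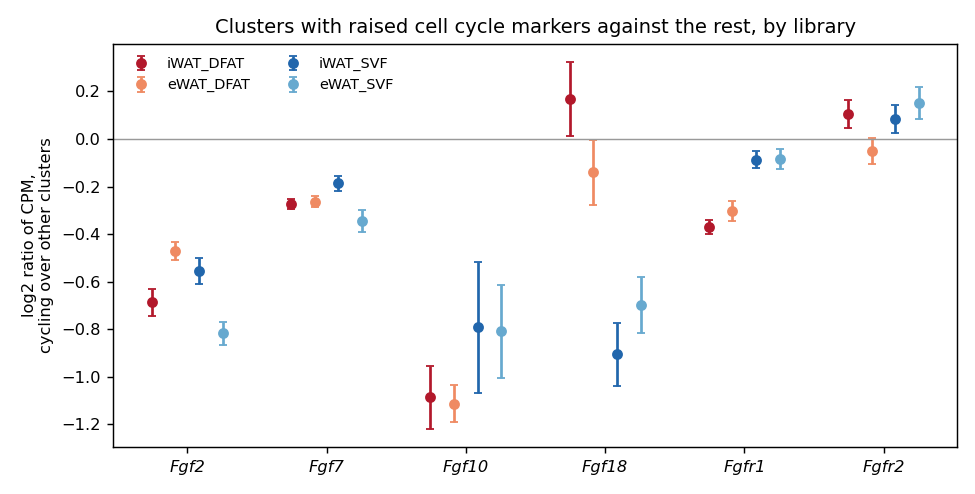
Log2 ratio of CPM in clusters with raised cell cycle markers over the other clusters with ASPC markers (vertical axis) for 6 members in the 4 libraries (colors), with 95% counting intervals. Fgf10 lies between -1.11 and -0.79 and is the lowest in both DFAT libraries, Fgf18 is the lowest in iWAT_SVF and Fgf2 in eWAT_SVF, and Fgfr2 lies between -0.05 and 0.15.

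Among clusters with ASPC markers in a library, Fgf10 spanned 5.72 to 22.9 CPM in iWAT_DFAT and 14.6 to 48.1 CPM in eWAT_DFAT. The lowest cluster in both was number 19, with 51 and 82 cells and with Slc6a12 and Il11 as its leading genes. Its Fgf10 levels rest on 6 and 26 UMIs. Their intervals, 2.10 to 12.4 and 9.54 to 21.4 CPM, overlap those of cluster 4 in iWAT_DFAT and cluster 8 in eWAT_DFAT, so this rank is within counting error. In cluster 19 Fgfr1 was at its highest, at 418 CPM in iWAT_DFAT and 161 in eWAT_DFAT. Fgf7 kept within 247 to 489 CPM over the clusters of iWAT_DFAT and within 80.5 to 102 CPM over those of eWAT_SVF. Fgfr2 was as low as 20.3 CPM in cluster 11, against up to 55 CPM in other clusters of iWAT_SVF.

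Genes with a pattern like that of a member were named by Pearson's r of log2(CPM + 1) over 27 groups of cells formed by cluster and library, which share 4 libraries, among 10756 other genes. For Fgf7 they were Prrx1 (0.91), a mesenchymal homeobox factor, Ddr2 (0.91), a collagen receptor, and Fam227b (0.90), the gene that overlaps Fgf7 on the opposite strand. For Fgf10 they were Npc2 (0.86), a carrier of cholesterol out of lysosomes, D030025P21Rik (0.85) and Rbp4 (0.85), a retinol carrier made by fat. Fgf2 followed Prepl (0.78), Usp13 (0.75) and Vgll3 (0.74) less closely. Fgf18 followed Nab2, Osr1 and Plxna1, each at 0.87, and Fgfr1 followed Cul3 (0.92), Sned1 (0.90) and Nr4a1 (0.89). Fgfr2 had the closest matches, Rfx7, Prr14l and Scaf8, each at 0.97. Between members r was 0.69 for Fgf7 with Fgf10, 0.70 for Fgf18 with Fgfr1 and 0.33 for Fgf10 with Fgfr1. The groups include the unnamed cluster 12 in each library, a cluster of low depth with a median of 7605.5 UMIs per cell. In its iWAT_DFAT cells Fgfr2 was at 7.797 CPM and Fgfr1 at 34.5, and both were lower in its cells of the other libraries. The lowest levels among ASPC-like clusters of iWAT_DFAT were 49.9 and 219 CPM. How far these groups set the r values was not tested.

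Of the wider family, 5 of 18 secreted ligands reached 5 CPM in a library, the 4 members and Fgf9, and none of the 4 intracellular homologous factors did. Of 5 receptors, 3 did, Fgfr1, Fgfr2 and the decoy receptor Fgfrl1, which lacks a kinase and was at 13.2 to 21 CPM. Fgf9 was at 5.57 CPM in eWAT_SVF and under 1 CPM in the others (0.446 in iWAT_DFAT, 0.264 in eWAT_DFAT and 0.777 in iWAT_SVF). It was the 1 ligand outside the members that was 2-fold apart, 7.17-fold lower in iWAT_SVF and 21.1-fold lower in eWAT_DFAT than in eWAT_SVF. Of 8 cofactors only Flrt2 and Flrt3, membrane proteins that bind FGF receptors, reached 5 CPM, and Flrt3 was higher in the inguinal library of each pair, 2.74-fold among DFAT and 3.87-fold among SVF cells.

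Of 12 heparan sulfate proteoglycans, most of them FGF co-receptors on the cell surface and some secreted, 10 reached 5 CPM. In iWAT_DFAT over iWAT_SVF, Sdc4, Gpc1 and Sdc1 were at least 2-fold higher and Gpc4 and Sdc2 lower, 5 of 10 apart where 15.1% of all genes were. In eWAT_DFAT over eWAT_SVF, Gpc1 was higher and Gpc4, Gpc3 and Sdc2 lower, 4 of 9 apart where 13.1% of all genes were. Gpc4, a glypican, was at 19.7 CPM in iWAT_DFAT and 27.5 in eWAT_DFAT, but at 135 in iWAT_SVF and 159 in eWAT_SVF. Syndecan-4 (Sdc4) was low in iWAT_SVF alone, at 109 CPM against 385 to 399 in the other 3 libraries. Gpc6 was 2.55-fold higher in iWAT_DFAT than in eWAT_DFAT, while between the SVF libraries Gpc1 was higher and Gpc3 and Sdc4 lower in iWAT_SVF. The list's median log2 ratio was -0.07 and -0.13 in the DFAT over SVF contrasts of iWAT and eWAT, against 0.09 and 0.07 over all genes.

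Of the enzymes that build and trim heparan sulfate, 13 of 14 reached 5 CPM. Hs6st2, a 6-O-sulfotransferase, was at 25.3 CPM in iWAT_DFAT, against 83.6 in eWAT_DFAT, 144 in iWAT_SVF and 127 in eWAT_SVF. Hs3st3a1, a 3-O-sulfotransferase, was 9.52-fold lower in iWAT_DFAT than in iWAT_SVF, and 2.69-fold higher in iWAT_SVF than in eWAT_SVF. Sulf1, which removes 6-O-sulfates outside the cell, was 2.45-fold lower in eWAT_DFAT than in eWAT_SVF. No other enzyme of the list was 2-fold apart. Between depots, 1 of 12 was apart among DFAT cells and 1 of 12 among SVF cells, where 12.2% and 6.88% of all genes were. In DFAT over SVF, 2 of 13 were apart for iWAT and 1 of 11 for eWAT, where 15.1% and 13.1% of all genes were. The counts were thus near the shares over all genes. None of the 8 adaptors at 5 CPM (Frs2, Grb2, Sos1 and others) was 2-fold apart in any of the 4 contrasts, where 6.88% to 15.1% of all genes were.

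Of 11 MAPK feedback inhibitors, 10 reached 5 CPM in a library. In iWAT_DFAT over iWAT_SVF, 3 of 8 were at least 2-fold higher (Dusp5, Spry2 and Dusp6) and 1 lower (Spry1), with a median log2 ratio of 0.73, where 9.91% of all genes tested were higher and 5.18% lower with a median of 0.09. In eWAT_DFAT over eWAT_SVF, 5 of 10 were higher (led by Dusp4, Dusp5 and Dusp6) and 2 lower (Spry1 and Il17rd), with a median of 0.98, where 6.44% of all genes were higher and 6.67% lower with a median of 0.07. Spry1 was thus at least 2-fold lower in DFAT cells of both depots, and Il17rd in those of eWAT.

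Dusp6, the cytoplasmic ERK phosphatase, was at 17.6 CPM in iWAT_DFAT, 35.0 in eWAT_DFAT, 7.80 in iWAT_SVF and 12.1 in eWAT_SVF. Dusp5, a nuclear ERK phosphatase, was at 38.1, 48.4, 8.79 and 15.0 CPM in that order. Spry1, a Sprouty inhibitor of the RAS-MAPK cascade, was at 6.97, 14.2, 51.7 and 55.8 CPM. It was 7.41-fold lower in iWAT_DFAT than in iWAT_SVF and 3.95-fold lower in eWAT_DFAT than in eWAT_SVF, the reverse of both phosphatases. Dusp4 was high in eWAT_DFAT alone, at 43.7 CPM against 9.40 to 11.7 in the others, and Spry4 likewise, at 16.5 against 3.24 to 5.98. Between the DFAT libraries Dusp4, Spry4 and Spry1 were at least 2-fold lower in iWAT_DFAT, 3 of 9 where 3.95% of all genes were, with a list median of -0.43 against 0.09 over all genes. Between the SVF libraries none of 10 was 2-fold apart, where 6.88% of all genes were, with a list median of -0.52 against 0.05.

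Among genes induced by growth factor signals, in iWAT_DFAT over iWAT_SVF, 3 of 7 were higher (Fosl1, Phlda1 and Egr1) and 1 lower (Ccnd1), with a median log2 ratio of 0.97, beside the same 9.91% and 5.18% of all genes. In eWAT_DFAT over eWAT_SVF, 5 of 8 were higher (led by Fosl1, Etv1 and Phlda1) and none lower, with a median of 1.12, beside 6.44% and 6.67% of all genes. Fosl1, an AP-1 subunit, was at 112 CPM in iWAT_DFAT, 101 in eWAT_DFAT, 18.4 in iWAT_SVF and 17.1 in eWAT_SVF. Phlda1 was at 424, 438, 82.3 and 101 CPM in that order, so that both genes parted DFAT from SVF cells with little difference between depots. Egr1, an immediate early factor, was high in iWAT_DFAT alone, at 826 CPM against 149 to 172 in the others, and the ETS factor Etv4 was highest in eWAT_DFAT, at 18.3 CPM against 5.80 to 9.0. The cyclin gene Ccnd1 was at 86.2, 105, 179 and 45.5 CPM, 3.93-fold higher in iWAT_SVF than in eWAT_SVF and opposite in direction between the depots when DFAT was compared with SVF. Neither list is specific to FGFs, since other growth factors act through the same cascade.

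**Figure D5:**
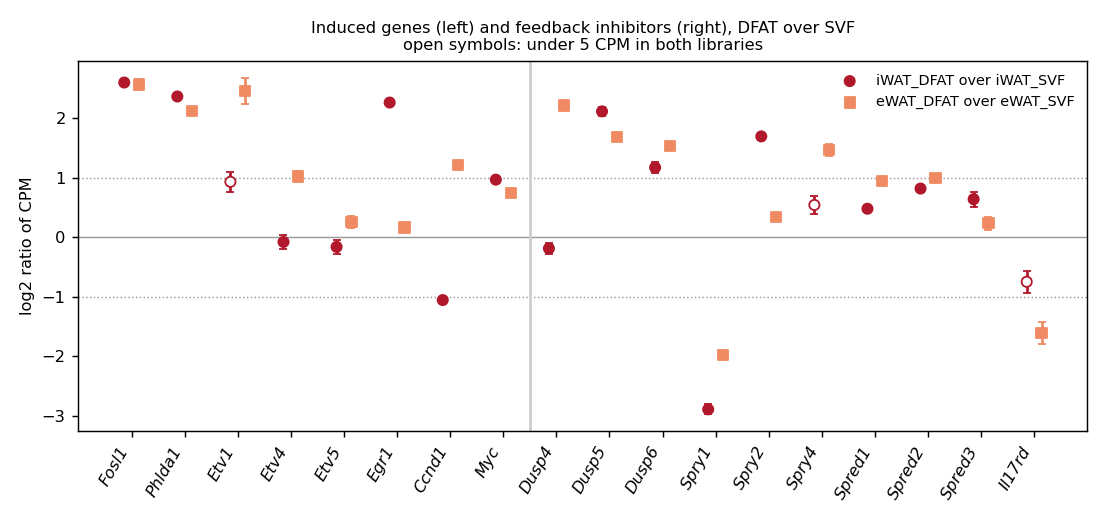
Log2 ratio of CPM in DFAT over SVF cells (vertical axis) of 8 induced genes (left of the gray line) and 10 feedback inhibitors (right), for iWAT (circles) and eWAT (squares), with 95% counting intervals and dotted lines at 2-fold; open symbols are under 5 CPM in both libraries. Fosl1 lies at 2.60 and 2.57, Dusp5 at 2.12 and 1.69 and Spry1 at -2.89 and -1.98, while Egr1, Ccnd1 and Dusp4 lie far apart in the depots.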

How the data were processed

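Counts of UMIs per gene and barcode were deposited by the authors for every barcode of 4 libraries prepared with the 10x 3′ v3.1 kit. Per the labels they were made with Cell Ranger 7.0.0 against mm10, and the study's methods state that intronic reads were included, while the file headers name version 7.1.0 for 3 libraries and 4 for iWAT_SVF. A difference in counting and the condition cannot be told apart in ratios that involve iWAT_SVF. The authors' later steps (removal of ambient RNA, doublets and integration) are not in these counts.

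Barcodes with 5000 to 75000 UMIs, 200 to 7500 genes and under 10% mitochondrial UMIs were kept as cells. Counts were summed per library and given as CPM with exact Poisson intervals, shares of cells with exact Clopper-Pearson intervals and ratios with exact conditional binomial intervals, all covering counting error only. With 1 library per condition there was no test. Depth gave a floor (3 UMIs) of 0.0150 to 0.0163 CPM. Shares were repeated with each cell thinned to 5000 UMIs. Free RNA was read from droplets of 1 to 100 UMIs.

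Cells were clustered together without integration (scanpy 1.11.5, 2000 variable genes, 30 components, 20 neighbors, leidenalg 0.10.2, resolution 1), and classes were named from marker lists. No cells were removed as doublets; the 334 to 466 cells per library of highest Scrublet score were left out as an alternative. Intervals came from scipy 1.17.1 (run under Python 3.11.15). They were checked only on counts simulated with Poisson error, which leaves out any further spread between cells. Promoters were taken from RefSeq (GRCm38.p6).

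The members and lists were chosen with earlier results of these data known. Named besides the members were the pathway genes at least 2-fold apart in a contrast (at most 3 per list, direction and contrast), the 3 genes most like each member and class markers. Fgfrl1, Flrt2 and the adaptors named were chosen after their values were seen. Alternatives covered limits on cells, doublets, cell class, scaling, depth, free RNA, intron length, the minimum level and the fold.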

Additional observations from a re-analysis of the deposited data

Results flagged for a closer look

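For Fgfr1, the comparison of DFAT with SVF cells ran in opposite directions in the depots. Its level was 256 CPM in iWAT_DFAT against 134 in iWAT_SVF, a log2 ratio of 0.93, and 97.5 CPM in eWAT_DFAT against 109 in eWAT_SVF, a log2 ratio of -0.16. The ratios differed by 1.09 on the log2 scale. The difference was not tested, since each condition had 1 library.

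For Fgfr2, the comparison of the inguinal with the epididymal depot ran in opposite directions in the kinds of culture. The log2 ratio was -0.17 in iWAT_DFAT over eWAT_DFAT and 0.18 in iWAT_SVF over eWAT_SVF, a difference of -0.35, which was likewise not tested. Both Fgfr2 ratios are small, and centered on genes of like intron length they were -0.52 and 0.02. The opposite direction thus all but went in that setting. The annotated model of Fgfr2 overlaps 22 genes on the same strand and runs far upstream of the RefSeq start.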

How the results depend on the processing

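No paired analysis was possible because each condition had 1 library. Each of 28 log2 ratios (7 members in 4 contrasts) was recomputed under 13 settings, 3 of them chosen after seeing the data (ASPC-like cells together with clusters 6 and 11, clusters without raised cell cycle markers, and cells without shared barcodes). Of these 364 values 355 kept their direction, and the 7 ratios counted as 2-fold apart stayed so in each setting. The counting interval of the main ratio held 250 of the values, and 114 fell outside it, though none moved by over 1.5 times. The intervals thus do not cover the spread between settings. Direction turned for Fgf2 in iWAT_DFAT over iWAT_SVF (-0.12 centered on genes of like intron length, -0.01 with size factors), for Fgfr2 in the same contrast (-0.22 centered on intron length) and for Fgfr3, under 120 UMIs per library, in iWAT_SVF over eWAT_SVF. The number of members 2-fold apart in iWAT_SVF over eWAT_SVF was 1, and it was 2 with no upper limit on genes and 2 without the highest doublet scores, where Fgf7 joined at the edge of the limit, and 3 at 1.5-fold, where Fgf2 and Fgf7 joined. In iWAT_DFAT over iWAT_SVF it was 2, and 4 at 1.5-fold, where Fgf18 and Fgfr1 joined, and 3 without the cycling clusters, where Fgfr1 joined. At 1.5-fold the count also went from 2 to 3 in iWAT_DFAT over eWAT_DFAT (Fgf2) and in eWAT_DFAT over eWAT_SVF (Fgf18). At that fold 14.7% of all genes tested were apart in iWAT_SVF over eWAT_SVF, 28.5% in iWAT_DFAT over iWAT_SVF, 26.7% in iWAT_DFAT over eWAT_DFAT and 28.2% in eWAT_DFAT over eWAT_SVF. Depth limited Fgfr3 alone among the members. No spread between cultures could be had.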

Other observations

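Other genes of the family had their highest levels in small classes of cells, and they are named here after their values were seen. Fgf5, a ligand known from the hair follicle, was at 231 CPM in the Schwann-like cells of iWAT_SVF against 0.312 CPM in the ASPC-like cells of that library. The 147 Schwann-like cells held 497 of its 556 Fgf5 UMIs, and 127 of them (86.4%) had a UMI of it. Fgf1, acidic fibroblast growth factor, was at 32.1 CPM in the mesothelial-like cells of eWAT_SVF against 1.07 CPM in ASPC-like cells, and at 22.8 CPM against 4.20 CPM in eWAT_DFAT. The mesothelial-like cells of eWAT_SVF, 7.28% of the library, held 66.4% of its Fgf1 UMIs. In eWAT_DFAT, where they were 1.19% of the cells, they held 4.94%, and ASPC-like cells held 86.3%.

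Klb, beta-klotho, the co-receptor with which FGFR1 binds FGF21, was at 12.0 CPM (24 UMIs) in the 105 adipocyte-like cells of eWAT_DFAT against 0.0744 CPM in ASPC-like cells. These cells held 24 of the 37 Klb UMIs of that library. In iWAT_DFAT the 33 adipocyte-like cells held 5 of 15, at 6.58 CPM.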
